A study of Rattus norvegicus with 58 samples.

Results

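The constitutive proteasome genes were taken as the genes whose only symbol in the platform annotation is Psma, Psmb, Psmc or Psmd followed by digits, with the interferon-induced subunits Psmb8, Psmb9 and Psmb10 left out. This gave 33 of the 14217 genes that have a probe set of their own, and each gene was represented by its probe set of highest average signal. The 33 members comprised 7 genes of the alpha ring (Psma1 to Psma7), 6 of the beta ring (Psmb1, Psmb2, Psmb3, Psmb4, Psmb5 and Psmb7), 6 ATPases of the base (Psmc1 to Psmc6), the 2 large base subunits Psmd1 and Psmd2, the ubiquitin receptor Psmd4, 8 lid subunits (Psmd3, Psmd6, Psmd7, Psmd8, Psmd11, Psmd12, Psmd13 and Psmd14) and 3 assembly chaperones (Psmd5, Psmd9 and Psmd10). Psmc3ip shares the letters of a member but carries letters after the digits and was left out. The catalytic subunit Psmb6 shares its probe set with Psmb6l1, so it has no value of its own here, and 1 further probe set that names Psma3 together with Psma3l was also left out.

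Expression was measured in liver of male rats that were 17 weeks old and had fasted overnight, on Affymetrix rat genome arrays with 2-cycle amplification of total RNA. The rats lived 2 to a cage with free access to food. The series has 58 arrays. Outbred heterogeneous stock (HS) rats, whose genomes are mosaics of inbred founders, gave 46, and the inbred strains ACI, BUF, BN, F344, WKY and M520 gave 2 each, 12 in all. The HS rats were 23 with normal glucose tolerance and 23 with glucose intolerance, grouped by their titles, because the other label of the intolerant group reads as both normal and intolerant. No agent or transgene is named in the sample titles of any group. Neither the litter or day of the 2 arrays of a strain nor any scan batch is given in the sources used here, so the p-values measure the spread between these arrays.

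The proteasome is the protease that degrades proteins tagged with ubiquitin. Its barrel-shaped core is built from rings of alpha subunits, which gate the entrance, around rings of beta subunits, some of which carry the active sites. The regulatory particle caps the barrel. Its base holds a ring of ATPases that unfold the substrate and feed it in, and its lid holds the deubiquitinase that removes the ubiquitin chain. Cells keep the subunits in proportion, and the transcription factor NFE2L1 raises their genes together when the protease is inhibited. In the liver this machinery turns over short-lived and damaged proteins of hepatocytes.

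All 33 members were bright, with a mean above 8 on the log2 scale of the deposited values, on which 1 unit corresponds to a 2-fold change. The array medians lay between 5.33 and 5.39. The liver label was borne out by hepatocyte markers such as Alb and Ttr: the mean over 9 such markers lay between 13.72 and 13.95 in HS rats and in inbred rats other than BUF, and was 13.8 and 13.89 on the 2 BUF arrays. The 2 arrays of a strain correlated with r between 0.989 (BUF) and 0.997 (ACI) over all probe sets. Because members were bright, their counts are also set beside the 4112 genes with a mean above 8, a comparison group chosen after seeing the data.

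The first comparison asked whether HS rats with and without glucose intolerance differ in proteasome transcripts, and no member was called. With limma's moderated test, 0 of 33 members passed an adjusted p of 0.05, as did 0% of the 31042 probe sets. At an unadjusted p under 0.05 there were again 0 members, against 8% of all probe sets (2483). Of the members, 14 had a higher and 19 a lower mean in intolerant rats, which is 42.4% higher against 42.5% of all genes and 53.5% of the bright genes. The median difference was -0.02, within a range of -0.09 to 0.08. In whole liver, fewer cells of a type and less RNA per cell cannot be told apart.

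The level averaged over the 33 members ran from 9.60 to 10.04 with a median of 9.85 in normal rats, and in intolerant rats the lowest was 9.67 and the median 9.87. The group means were 9.86 ± 0.09 and 9.85 ± 0.09 (SD, n = 23 each). The groups overlapped along almost their whole length.

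Among the alpha ring genes, 3 of 7 had a higher mean in intolerant rats. Psma7 had the smallest p of this ring: normal rats ran from 10.52 to 10.96 with a median of 10.70, and intolerant rats from 10.31 to 10.83 with a median of 10.68. The difference was -0.06 ± 0.04 (SE), with p = 0.0984 in limma and an adjusted p of 0.678. Psma2 had the widest interval of any member, from -0.12 to 0.28 around a difference of 0.08, and also the largest spread among HS rats.

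In the beta ring, Psmb4, a structural subunit, had the smallest p of all 33 members. Its level ran from 11.40 to 11.74 (median 11.51) in normal rats and from 11.34 to 11.68 (median 11.48) in intolerant rats. The difference was -0.06 with a 95% interval of -0.12 to 0.00 (limma p = 0.0677, adjusted p = 0.646). Psmb5, which carries the chymotrypsin-like active site, averaged 11.22 ± 0.11 in normal and 11.17 ± 0.12 in intolerant rats (SD, n = 23 each), a difference of -0.05 with an interval of -0.12 to 0.02 (limma adjusted p = 0.734). Psmb7, which carries the trypsin-like site, differed by -0.05 with an interval of -0.15 to 0.04 (limma adjusted p = 0.801). Psmb2 had the opposite sign, with a difference of 0.07 and an interval of -0.02 to 0.17 (limma p = 0.117, adjusted p = 0.698). The intervals of these 4 core subunits reached at most 0.17 in size, and none passed the test.

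Of the base genes, the ATPase Psmc3 and the scaffold Psmd2 had the smallest p, and 2 of the 6 ATPases had a higher mean in intolerant rats. Psmc3 averaged 10.43 ± 0.14 in normal and 10.34 ± 0.20 in intolerant rats (SD, n = 23 each), a difference of -0.09 (limma p = 0.073, adjusted p = 0.652). Psmd2 differed by -0.09 with an interval of -0.20 to 0.02 (limma p = 0.121, adjusted p = 0.700). The ubiquitin receptor Psmd4 differed by 0.03 (interval -0.04 to 0.10), and the lid deubiquitinase Psmd14 by 0.07 (interval -0.06 to 0.20). Differences of the 8 lid genes lay between -0.04 and 0.07, and those of the 3 assembly chaperones between -0.05 and 0.04.

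**Figure D1:**
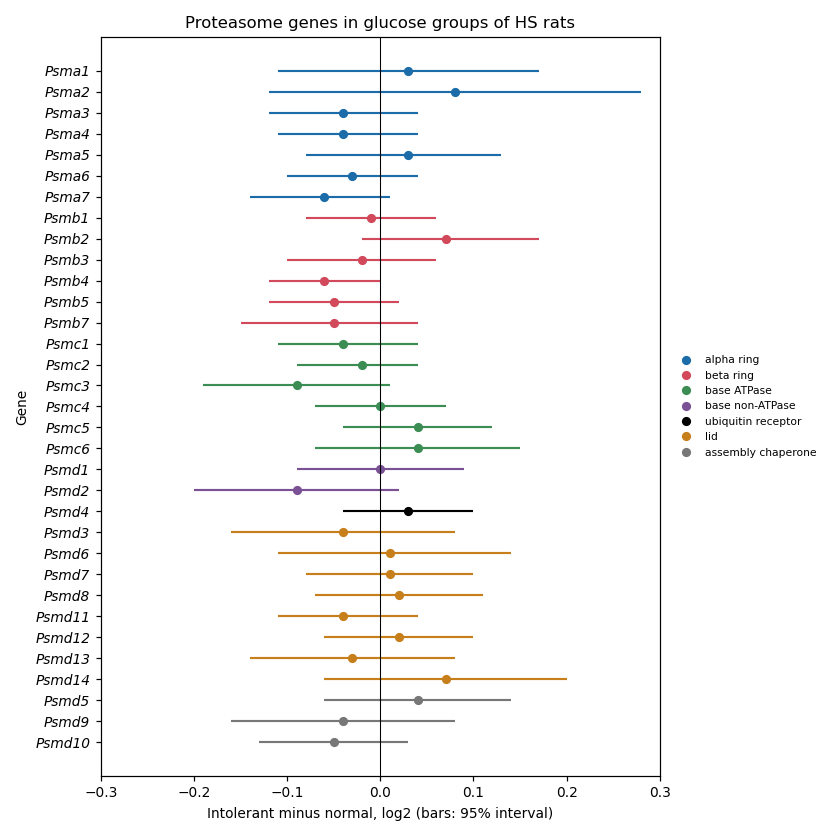
Difference between the 2 glucose groups for each of the 33 proteasome genes in HS rats (x axis, log2, intolerant minus normal; 23 rats per group), with bars for the 95% interval and colours for the part of the complex. All differences lie between -0.09 and 0.08, and no member was called; the upper bound of Psmb4 rounds to 0.00.

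The second comparison asked whether the 6 inbred strains differ. By limma's moderated F test, 1 of 33 members was called (3.03%), below the 11.9% of all probe sets and the 18.8% of bright genes. At an unadjusted p under 0.05 there were 5 members (15.2%), against 29.4% of all probe sets. The range of the strain means had a median of 0.37 over members, against 0.44 over all genes and 0.52 over bright genes, and it was below that last value for 27 of 33 members. The called member was Psmd9, a chaperone that assists assembly of the ATPase ring, with a range of 0.97 (adjusted p = 0.0384). Psma2 and Psmd14 came next, with ranges of 1.21 and 0.90 (adjusted p = 0.0610 and 0.0614), and neither was called on its used probe set. A dimmer probe set of Psmd14, with a mean of 5.79, was called by the F test (limma adjusted p = 0.0406). Its remaining probe set was not (adjusted p = 0.0874). The lowest ranges, 0.15, belonged to Psmb1 and Psmd8.

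The F call rested on single arrays. When 1 inbred array at a time was left out, the count stayed at 1 in 3 of 12 fits and was 0 in 8: without either array of ACI, BN or M520, without BUF array 2 and without WKY array 1. Without BUF array 1 there were 6 calls.

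Each strain was then set against the mean of the other 5. In BUF, 5 of 33 members were called, against a background of 5.76% of all probe sets (2.49% higher and 3.27% lower). Of these, 4 were lower in BUF: Psma1 and Psma2 of the alpha ring and Psmd6 and Psmd14 of the lid. The assembly chaperone Psmd9 was higher. The other 28 members did not pass the test, and 10 of the 33 (30.3%) had an unadjusted p under 0.05, against 23% of all probe sets and 38.6% of bright genes.

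Psma2, an alpha ring subunit, read 9.68 and 8.82 on the BUF arrays, 10.29 and 10.12 in ACI, 9.83 and 9.95 in BN, 10.08 and 9.72 in F344, 10.30 and 10.61 in M520, and 9.85 and 10.15 in WKY. Both BUF arrays lay below the 10 others. The difference was -0.84 ± 0.19 (SE), with a limma adjusted p of 0.0289. M520 had the highest Psma2 of the strains, at 0.61 above the mean of the other 5, which did not pass the test (limma adjusted p = 0.0987).

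Psmd14 read 8.92 and 8.22 in BUF, 9.43 and 9.32 in ACI, 9.50 and 9.45 in BN, 9.39 and 9.16 in F344, 9.18 and 9.41 in M520, and 9.29 and 9.36 in WKY. Both BUF arrays again lay below all others, and the difference was -0.78 ± 0.15 (SE; limma adjusted p = 0.0159). Psmd14 is measured by 3 probe sets, all of them lower in BUF: the other two differed by -1.46 (limma adjusted p = 0.0243) and by -0.48 (adjusted p = 0.0366).

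Psma1 read 9.80 and 9.07 in BUF, and between 9.87 and 10.60 on the 10 other arrays, a difference of -0.73 ± 0.17 (SE; limma adjusted p = 0.0297). Psmd6 read 9.39 and 8.77 in BUF, a difference of -0.61 ± 0.15 (SE; limma adjusted p = 0.0392), and here F344 array 2 at 9.36 lay below the higher BUF array. Psmd9 read 8.84 and 9.48 in BUF and differed by 0.70 ± 0.16 (SE; limma adjusted p = 0.0277), and F344 array 2 at 9.11 lay above the lower BUF array. The second probe set of Psmd9 was dim, with a mean of 5.62, and differed by 0.23 (limma adjusted p = 0.365).

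**Figure D2:**
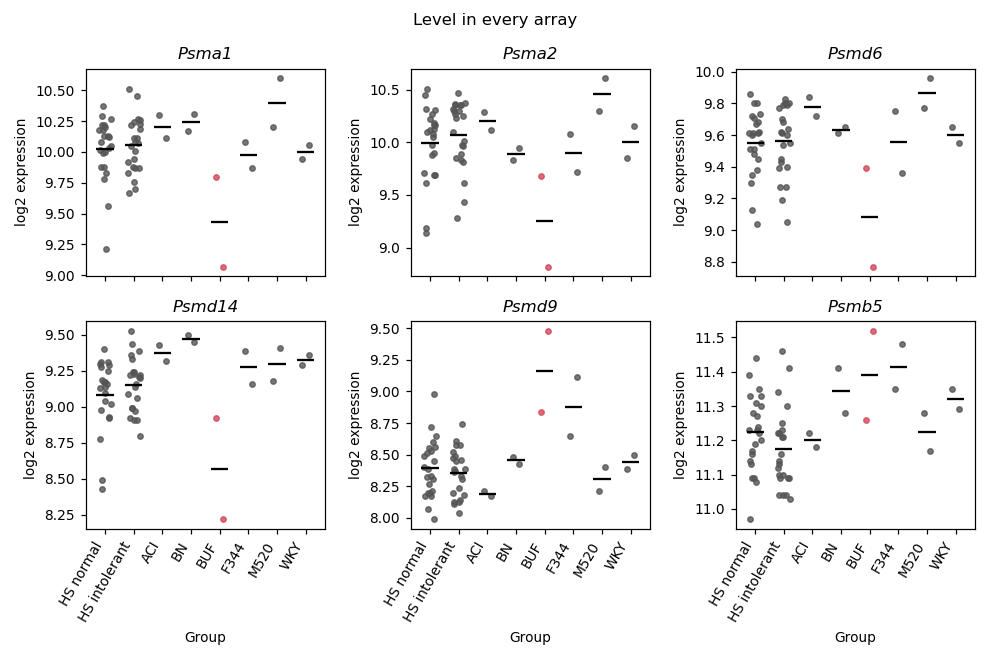
Log2 expression of Psma1, Psma2, Psmd6, Psmd14, Psmd9 and Psmb5 in every array by group; each point is 1 rat, lines are group means and BUF is in red. The BUF means are lowest for Psma1, Psma2, Psmd6 and Psmd14 and highest for Psmd9, and the 2 BUF arrays are 0.86 apart for Psma2; Psmb5 spans 0.22 between strain means.

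The 2 BUF arrays differed from each other about as much as BUF differed from the other strains. BUF array 2 was below array 1 by 0.86 for Psma2, 0.73 for Psma1, 0.70 for Psmd14 and 0.62 for Psmd6, and above it by 0.64 for Psmd9. In each called member array 2 was the more extreme. Without BUF array 2, 0 members were called, and the differences were -0.41 (Psma2), -0.42 (Psmd14), -0.37 (Psma1), -0.30 (Psmd6) and 0.38 (Psmd9). Without BUF array 1, 9 members were called: those 5 and Psma5, Psmb2, Psmc6 and Psmd13. Over all probe sets the BUF calls went from 1789 to 229 without array 2 and to 4255 without array 1. Arrays of other strains also moved the count, to 1 without either ACI array, 3 without BN array 2 or M520 array 1, and 2 without M520 array 2.

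Some markers of non-parenchymal liver cells were also called lower in BUF. Of endothelial markers 3 of 7 were called lower (Fcgr2b by 0.99, Lyve1 by 0.81 and Emcn by 0.55), of Kupffer cell markers 2 of 8, of stellate and matrix markers 2 of 8, of lymphocyte markers 1 of 8, of bile duct markers 0 of 4, of red blood cell markers 0 of 2 and of hepatocyte markers 0 of 9, and none was called higher. The median difference of a list ran from -0.40 for Kupffer cells, -0.32 for endothelial cells and -0.30 for stellate cells and matrix to 0.09 for lymphocytes and 0.51 for red blood cells, and single markers such as Cd3e (0.40) had a higher mean in BUF. The mean level of the endothelial list was 7.91 and 8.22 on the BUF arrays and 7.99 to 9.06 in the other strains. The mean of the Kupffer list was 8.60 and 8.98 against 8.50 to 9.84. Both lists were higher on BUF array 2 than on array 1. The mean of the stellate and matrix list was lower there, with 6.93 on array 1 and 6.72 on array 2. For hepatocytes the means on arrays 1 and 2 were 13.8 and 13.89, and for bile duct 5.21 and 5.28. For red blood cells they were 9.04 and 9.38, and the lymphocyte mean was 4.68 on both. Psma2, Psma1, Psmd6 and Psmd14 were lower on array 2. The part of these cell markers in the proteasome differences was not tested.

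In the other strains 0 members were called, against backgrounds of 2.42% of probe sets in ACI, 4.68% in BN, 1.61% in F344, 4.65% in M520 and 4.74% in WKY. The members with an unadjusted p under 0.05 numbered 5 in ACI, 2 in BN, 2 in F344, 6 in M520 and 0 in WKY. As shares these were 15.2%, 6.06%, 6.06%, 18.2% and 0%, against 15.6%, 16.7%, 11.3%, 19.3% and 18.1% of all probe sets in the same order. In BN 27 of 33 members had a higher mean than the other strains and in F344 26 of 33, with median differences of 0.05 and 0.06. In ACI 12 were higher (median -0.09), in BUF 11 (median -0.11), in M520 18 (median 0.06) and in WKY 22 (median 0.02). Members with a higher mean thus made up 81.8% in BN, 78.8% in F344, 36.4% in ACI, 33.3% in BUF, 54.5% in M520 and 66.7% in WKY. Among all genes the shares were 52.6%, 48.8%, 45.8%, 55.5%, 44.7% and 53%, and among bright genes 53.6%, 53.7%, 55%, 47.1%, 42% and 61%, in the same order. The WKY share thus lay near that of its bright genes.

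The member of smallest p in ACI was the lid subunit Psmd3, at 8.50 and 8.75 against a mean of 9.08 in the other 5 strains, a difference of -0.46 (limma adjusted p = 0.142). Psmd9 read 8.21 and 8.17 in ACI, with the same difference of -0.46 (adjusted p = 0.178). With array weights both passed the test in ACI (limma adjusted p = 0.0284 and 0.0310). In BN, the alpha ring subunit Psma6 read 12.26 and 12.24 and differed by 0.25 (limma adjusted p = 0.186), and both arrays lay above the 10 others. Psmd1, a base scaffold, differed there by 0.22 (adjusted p = 0.256).

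In F344 the lid subunit Psmd7 read 10.08 on both arrays, a difference of 0.25 (limma adjusted p = 0.366), and Psmd9 differed by 0.37 (adjusted p = 0.396). In M520 Psmb4 read 11.27 and 11.32, below all 10 other arrays, and differed by -0.29 (limma adjusted p = 0.0929). In WKY the smallest p values belonged to Psmb4, with a difference of 0.15 (limma adjusted p = 0.440), and to the lid subunit Psmd11, with -0.14 (adjusted p = 0.451). Psmb4 thus had its lowest strain mean in M520 and its highest in BN, 0.38 apart.

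**Figure D3:**
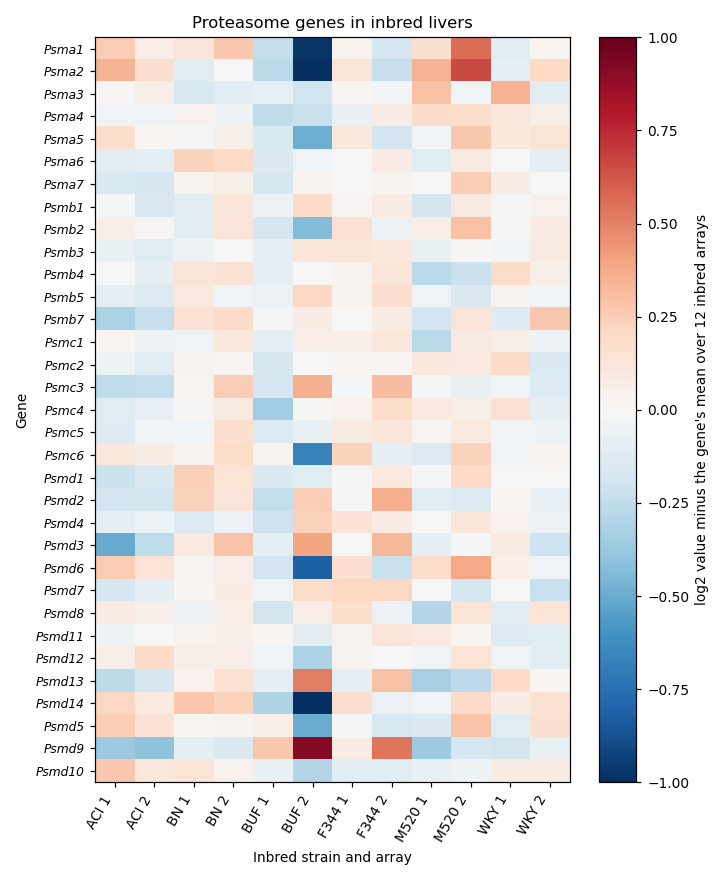
Log2 value minus the gene's mean over the 12 inbred arrays for each proteasome gene (rows) and inbred array (columns); red is above and blue below that mean, and values beyond -1 or 1 take the end colour. BUF array 2 stands apart, with Psma2 at 8.82 and Psmd14 at 8.22 among the blue cells and Psmd9 at 9.48 among the red ones.

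The spread among the 46 HS rats differed between members. After removing the group means, the residual SD was below the bright genes' median of 0.17 for 22 of 33 members and at or above it for 11. It was largest for Psma2 (0.340), Psma1 (0.242) and Psmd14 (0.220), and smallest for Psmb4 (0.0963), Psmb1 (0.106) and Psma6 (0.109). These spreads are those of each probe set's signal and do not compare levels between genes. The 3 most variable members in HS rats were also 3 of the 4 called lower in BUF.

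Members varied together. Over the 528 pairs of members the median Pearson r of the residuals across the 46 HS rats was 0.40, against 0.01 for pairs of all genes and 0.02 for pairs of bright genes. An r above 0.5 was reached by 37.5% of member pairs, 1.67% of all pairs and 4.99% of bright pairs. The pairs share members and arrays and are a description. Psmc3 and Psma4 had the highest median r with the other members, 0.59 and 0.57. Psmd5, which chaperones the base, and Psmc6 had the lowest, 0.08 and 0.13. Negative r was found in 84 pairs. An r below -0.5 was reached by 1.89% of member pairs, 1.08% of all pairs and 3.44% of bright pairs.

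The members were then set against the axis on which HS livers differed most, and 14 of 33 correlated with it beyond 0.5 in size. This axis is the first principal component of the HS residuals, computed over all probe sets except those of the members and holding 17.9% of the variance, with its sign set so that Psmd2 rises. For 8 members, called falling members below, r with the axis was under -0.5: Psma2 (-0.94), Psmd6 (-0.86), Psmb2 (-0.78), Psmc6 (-0.76), Psmd5 (-0.74), Psma1 (-0.70), Psma5 (-0.70) and Psmd14 (-0.69). For 6 members, called rising members, it was above 0.5: Psmd2 (0.82), Psmd7 (0.80), Psmd13 (0.79), Psmd3 (0.71), Psmb5 (0.62) and Psmd11 (0.59). The remaining 19 lay between, Psmd4 at 0.03 and Psmb7 at 0.16 among them. The share beyond 0.5 in either direction was 42.4% of members, 37.7% of bright genes and 22.6% of all genes, and the members' share thus lay near that of the bright genes.

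The falling side held 3 of the 7 alpha ring genes and the rising side none, whereas the lid had 2 genes on the falling and 4 on the rising side. Psma2 and Psmd6 varied in the same direction, with r = 0.92 and Spearman's rho = 0.85 (r = 0.89 without the 2 rats farthest from the median of Psma2, 0.89 in normal and 0.95 in intolerant rats). Psma2 and Psmd7 ran in opposite directions, with r = -0.69 and rho = -0.63 (-0.70 without the 2 farthest rats, -0.71 and -0.69 within the groups). All 48 pairs of a falling with a rising member had a negative r, with a median of -0.36. Sorting members by their r with the axis favours that sign. Within the falling members the median r was 0.80 (28 pairs) and within the rising ones 0.73 (15 pairs). The same sorting favours a positive r within each side.

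The scores of normal rats ran from -1.31 to 2.46 with a median of 0.0396, in units of the SD over HS rats, and those of intolerant rats from -1.29 to 2.43 with a median of -0.521. Both groups covered the same span. Among markers, the median r with the axis was 0.15 for hepatocytes, 0.05 for Kupffer cells, -0.32 for endothelial cells, 0.00 for stellate cells and matrix, -0.06 for bile duct, -0.26 for lymphocytes and 0.34 for red blood cells. Single markers reached -0.66 (Fcgr2b) and 0.71 (Hnf4a). Their part in the members' pattern was not tested.

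**Figure D4:**
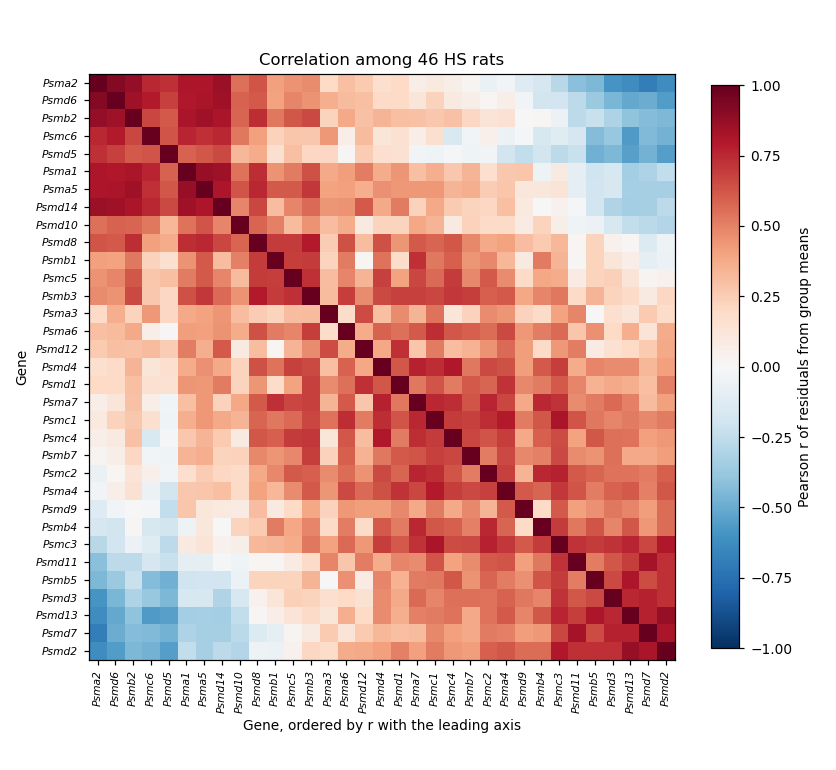
Pearson r between the residuals of each pair of the 33 proteasome genes across 46 HS rats, with genes ordered by their r with the leading axis from Psma2 (-0.94) to Psmd2 (0.82). Red blocks at the corners hold the falling and the rising members (median r 0.80 and 0.73 within them), and blue cells hold the pairs across, down to -0.69. Ordering by r with the axis favours this layout.

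The inbred arrays, which did not enter the axis, can be placed on it. BUF array 2 scored 2.96, the highest of all 58 arrays, and BUF array 1 scored 1.12. F344 array 2 scored 1.78 and F344 array 1 0.112. Within BUF, all 8 falling members were lower on the array of higher score, by a median of 0.66, and 5 of the 6 rising members were higher, by a median of 0.38. Within F344 the same counts held, 8 of 8 lower by a median of 0.26 and 5 of 6 higher by a median of 0.23. M520 (8 of 8 lower, 4 of 6 higher) and ACI (8 of 8 lower, 5 of 6 higher) had smaller gaps in score, as did WKY (7 of 8 and 5 of 6) and BN (7 of 8 and 2 of 6). Sorting members by their r with the axis favours these directions. Shares over other genes sorted in the same way were not computed, so the counts are a description.

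With the axis score as a covariate, a setting added after seeing the data, 0 members were called in BUF, and BUF calls over all probe sets went from 1789 to 238. The differences became -0.26 for Psma2, -0.37 for Psmd14, -0.27 for Psma1, -0.19 for Psmd6 and 0.32 for Psmd9 (limma adjusted p between 0.433 and 0.726). The BUF mean score of 2.04 was the highest of the strains, so strain and score cannot be told apart fully with 2 arrays. Leaving out the higher-scoring array of both BUF and F344, also added after seeing the data, gave 0 calls in BUF.

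**Figure D5:**
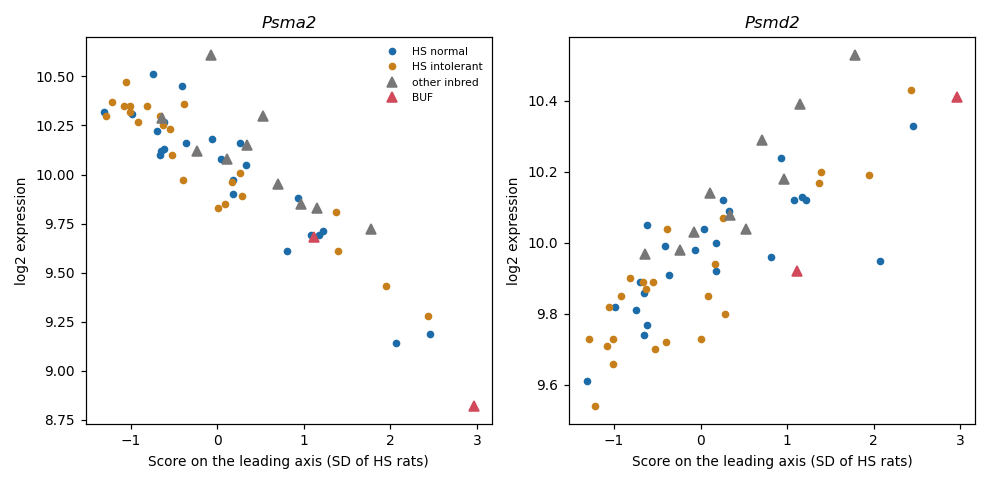
Log2 expression of Psma2 (left) and Psmd2 (right) against the score on the leading axis in units of the SD of HS rats, 1 point per array; circles are HS rats and triangles inbred rats, with BUF in red. Psma2 falls with the score (r = -0.94 among HS rats) and Psmd2 rises (r = 0.82), and BUF array 2 lies at 2.96, beyond all HS rats.

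Several genes with more than 1 probe set did not give the same picture on each. The used probe set of Psmc6 had r = -0.76 with the axis, whereas a second bright one had 0.24, and the F test called that second one (limma adjusted p = 0.0409) and not the first (0.559). For Psmd7 the used probe set had 0.80 and the other -0.25, with r = 0.07 between them. The 3 probe sets of Psmd14 had -0.69, -0.95 and -0.63, and the 2 bright ones of Psmd11 had 0.59 and 0.80. A further probe set of Psmc6, with a mean of 8.05, had r = -0.45 with the axis and 0.6 with the used probe set. It thus shared the sign of the used probe set but did not pass -0.5. The side of the axis given here for Psmd7, and its r with Psma2, are therefore those of 1 probe set. For Psmc6 only the used probe set passed -0.5, and its bright probe sets did not all have the same sign. In all, 7 members had more than 1 probe set, and the extra ones of Psmb5 and Psmc4 were dim.

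The stretch upstream of each gene was examined because members moved together. Sequences from 250 bases before to 50 bases after the start, from RefSeq on the GRCr8 build, were given for 29 of the 33 members. The motif CCAAT, which reads ATTGG when it lies on the other strand and binds NF-Y, was present in 16 of 29 members' windows (55.2%) and in 37.7% of 27457 windows of the same length. The core of the antioxidant response element, written TGACNNNGC, or GCNNNGTCA when it lies on the other strand, and bound by NFE2L1 and NFE2L2 with small MAF proteins, was present in 6 of 29 (20.7%) and in 12.2% of all windows. By side of the axis, CCAAT was in 4 of 6 falling, 2 of 6 rising and 10 of 17 other members, and the response element core in 1, 2 and 3. The median share of G and C bases was 59.6% in falling, 58.4% in rising and 55.3% in other members' windows. Over all windows it was 52.3%, and the motif shares were not matched for it. The windows are shown for 2 falling and 2 rising members, written 5′ to 3′ along the strand of the gene, with capitals for these motifs. Psma2 lies at chr17:55260392-55260691 on the minus strand, Psmb2 at chr5:144254808-144255107 on the plus strand, Psmd13 at chr1:205393998-205394297 on the plus strand and Psmd7 at chr19:52411267-52411566 on the minus strand. In Psmb2 the second CCAAT and the response element core share 1 base.
Psma2: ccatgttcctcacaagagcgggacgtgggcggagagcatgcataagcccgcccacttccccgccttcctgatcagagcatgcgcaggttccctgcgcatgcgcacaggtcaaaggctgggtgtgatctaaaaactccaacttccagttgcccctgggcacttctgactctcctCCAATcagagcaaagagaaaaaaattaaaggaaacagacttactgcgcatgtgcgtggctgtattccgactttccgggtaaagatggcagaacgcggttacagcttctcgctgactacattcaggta
Psmb2: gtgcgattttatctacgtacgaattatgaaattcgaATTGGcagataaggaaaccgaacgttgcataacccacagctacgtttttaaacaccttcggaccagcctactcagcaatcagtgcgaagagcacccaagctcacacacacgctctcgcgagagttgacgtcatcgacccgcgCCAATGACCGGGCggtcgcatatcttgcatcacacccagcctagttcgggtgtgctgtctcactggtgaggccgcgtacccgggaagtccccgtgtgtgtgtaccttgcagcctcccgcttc
Psmd13: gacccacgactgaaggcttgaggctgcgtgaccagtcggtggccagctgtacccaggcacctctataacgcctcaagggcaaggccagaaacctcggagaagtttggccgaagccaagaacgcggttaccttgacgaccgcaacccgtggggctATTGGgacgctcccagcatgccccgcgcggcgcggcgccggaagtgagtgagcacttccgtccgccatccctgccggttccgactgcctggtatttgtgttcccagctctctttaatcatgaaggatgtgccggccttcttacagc
Psmd7: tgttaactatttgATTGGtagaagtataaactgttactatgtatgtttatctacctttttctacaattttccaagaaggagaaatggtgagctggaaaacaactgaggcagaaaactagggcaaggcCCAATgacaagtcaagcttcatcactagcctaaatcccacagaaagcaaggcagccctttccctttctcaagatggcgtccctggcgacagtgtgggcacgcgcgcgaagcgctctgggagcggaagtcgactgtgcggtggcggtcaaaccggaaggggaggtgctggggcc
The windows shown all hold CCAAT, 1 copy in Psma2 and Psmd13 and 2 in Psmb2 and Psmd7. Psmd13 and Psmd7 are the only rising members with it, and Psmd2, Psmd3, Psmb5 and Psmd11 have none. Of the falling members with a window, Psmc6 and Psmd5 have none. A match of these letters is a description and no evidence that a factor is bound.

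The third comparison set the outbred HS rats beside the mean of the 6 inbred strains, in a fit of all 58 arrays. Of the members 3 were called lower in HS rats and 0 higher, against 2.42% of all probe sets lower, 2.64% higher and 5.05% in either direction. At an unadjusted p under 0.05 there were 19 members (57.6%), against 19.6% of all probe sets and 29.4% of bright genes. Of the 33, 28 had the lower mean in HS rats, so 15.2% were higher against 45.2% of all genes and 54.7% of bright genes. The median difference was -0.09, against -0.01 over all genes and 0.01 over bright genes. Members vary together on the same arrays, so a shift shared by several of them counts repeatedly in these shares, which are a description. The same holds for the counts by role below. Stock and any difference in array run cannot be told apart.

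The called members were 2 lid subunits and the base scaffold Psmd2. Psmd11 averaged 10.59 in HS and 10.75 in inbred rats, a difference of -0.16 ± 0.04 (SE; limma adjusted p = 0.00724). Psmd7 averaged 9.68 and 9.87, a difference of -0.18 ± 0.05 (SE; limma adjusted p = 0.0161). Psmd2 averaged 9.94 and 10.16, a difference of -0.23 ± 0.06 (SE; limma adjusted p = 0.0157). Both stocks overlapped for each gene: Psmd11 ran from 10.37 to 10.91 in HS rats and from 10.62 to 10.88 in inbred rats.

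All 6 beta ring genes and all 8 lid genes had the lower mean in HS rats, as did 5 of 7 alpha ring genes and 5 of 6 ATPases. Of the assembly chaperones only Psmd9 was lower (-0.20), whereas Psmd5 was higher by 0.15 and Psmd10 by 0.06, and none of these passed the test. The 3 called members were all rising members of the axis, on which the mean score of each HS group was 0.157 (normal) and -0.157 (intolerant) and that of every strain but ACI was above both, M520 at 0.225 the lowest of these. With the score as a covariate Psmd11 differed by -0.12, Psmd7 by -0.10 and Psmd2 by -0.12 (limma adjusted p = 0.0532, 0.0986 and 0.0778), and 4 other members were called lower in HS rats: Psmd6 (-0.17), Psmd14 (-0.21), Psmb2 (-0.13) and Psma2 (-0.15). Without BUF array 2 the call was kept by Psmd11 alone (-0.17), and without BUF array 1 there were 9 calls, 8 lower and Psmd5 higher. There were 5 calls without F344 array 1 or without WKY array 2. The second bright probe set of Psmd11 was also lower in HS rats (-0.28, limma adjusted p = 0.0342), and the second one of Psmd7 differed by -0.12 (adjusted p = 0.154).

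Other genes of the pathway were taken as lists by role, and none passed the test between the glucose groups. The smallest p there belonged to the interferon-induced subunit Psmb8, given with its list at the end. Of the regulators of proteasome gene transcription, 1 of 8 differed among strains by the F test. This was Nfe2l2, the oxidative stress factor, with a range of strain means of 1.05 (limma adjusted p = 0.0324). It was lower in BN by 0.68 (adjusted p = 0.0435), where Ddi2, the protease that releases NFE2L1, was higher by 0.47 (adjusted p = 0.0306). Nfe2l1 itself had a range of 0.16 and differed by -0.13 between glucose groups (limma p = 0.0546, adjusted p = 0.629), and Maff by -0.11 (p = 0.164). In BN, where both were called, 0 proteasome members were called. There 27 of 33 members (81.8%) had a higher mean, against 53.6% of bright genes, with a median difference of 0.05. In F344, where neither regulator was called, the share was 78.8% against 53.7% of bright genes, with a median difference of 0.06. A link between these regulators and the members was not tested.

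Among the assembly chaperones outside the members 0 of 6 differed among strains, with Psmg1 (range 0.58, limma adjusted p = 0.107) and Psmg3 (range 0.62, adjusted p = 0.125) of smallest p. Psmg4 was higher in HS than in inbred rats by 0.16 (limma adjusted p = 0.00288), and Pomp, which helps the beta ring mature, was lower by 0.10 (adjusted p = 0.0178). Between glucose groups Pomp differed by -0.06 (limma p = 0.00849, adjusted p = 0.493) and Psmg3 by -0.16 (p = 0.0218, adjusted p = 0.558). Pomp thus had the lower mean in intolerant rats and was not called there.

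Of the proteasome-bound ubiquitin handling genes, 0 of 9 differed among strains, Rad23b (range 0.59) and Uchl5 (range 0.63) having the smallest p (limma adjusted p = 0.161 and 0.181). Between glucose groups Ubqln2 differed by -0.09 (limma p = 0.0207, adjusted p = 0.548) and Usp14 by 0.06 (p = 0.157). These genes lay on both sides of the axis, from Rad23b at r = -0.61 to Ubqln4, a shuttle for ubiquitinated proteins, at 0.93. Adrm1, a ubiquitin receptor of the base, had 0.78. Of the activators and the inhibitor 0 of 4 differed among strains, Psmf1 (range 0.46, limma adjusted p = 0.131) and Psme4 (range 0.39, adjusted p = 0.209) having the smallest p. Between glucose groups Psmf1 differed by 0.03 (limma p = 0.339, adjusted p = 0.833) and Psme1 by -0.01 (p = 0.715, adjusted p = 0.946). The ubiquitin-activating enzymes Uba1 and Uba6 spanned 0.58 and 0.56 between strain means (limma adjusted p = 0.245 and 0.390), differed by 0.01 and 0.02 between glucose groups (adjusted p = 0.984 and 0.966) and had r = 0.80 and -0.66 with the axis.

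The interferon-induced subunits replace catalytic beta subunits, and 2 of the 3 were called among strains. Psmb8 spanned 2.39 between strain means, from 8.06 in BN to 10.45 in WKY, and Psmb9 spanned 1.98 (F test, limma adjusted p = 3.51e-06 and 0.000253). Psmb10 spanned 0.65, less than Psma1, Psma2, Psmd6, Psmd9 and Psmd14 among the members, and was not called (adjusted p = 0.0973). In single strains Psmb8 was called lower in BN (-1.57) and M520 (-0.66) and higher in F344 (1.08) and WKY (1.30), and Psmb9 lower in BN (-0.68) and M520 (-1.18) and higher in WKY (1.20). Between glucose groups Psmb8 averaged 9.56 ± 0.31 in normal and 9.95 ± 0.27 in intolerant rats (SD, n = 23 each), a difference of 0.38 (limma p = 3.17e-05, adjusted p = 0.179), and Psmb9 differed by 0.14 (p = 0.188, adjusted p = 0.745). Psmb8 was higher in HS than in inbred rats by 0.39 (limma adjusted p = 0.00396). Psmb5, the subunit that Psmb8 replaces, spanned 0.22, and the r of Psmb8 with the axis was 0.06. The difference in spread between these genes was not tested.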

How the data were processed

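Liver RNA of 58 rats was measured on 1 array each. The values deposited by the authors are log2 expression of 31042 probe sets, already on a common scale. How background was corrected and arrays were normalized is not stated in the labels or headers. Partek is named in the submitters' processing notes, with no version. Arrays have no read depth: the number of arrays sets the precision.

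Names came from the platform annotation, in which 20826 probe sets had 1 symbol, 436 several and 9780 none. Of 14217 gene identifiers, 14167 were found in GRCr8, and the symbols of all 33 members were unchanged there. Tests used limma 3.58.1 (lmFit and eBayes) in R 4.3.3 on the deposited log2 values without a filter, with Benjamini-Hochberg adjustment over all probe sets at 0.05. Glucose groups were compared over 46 HS arrays (44 residual degrees of freedom), strains over 12 inbred arrays (6), by an F test and by contrasts of a strain with the average of the other 5, and HS against inbred rats over all arrays. The scripts were tested on simulated data.

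Members, lists and tests were chosen with earlier results of these data known. Named in full were Psmb5, Psmb7, Psmd4 and Psmd14, the 6 members of smallest p between glucose groups, called members (the 2 of smallest p in a strain with none, and 3 in the F test), and members at the ends of the spread and correlation. Of the pathway lists the 2 genes of smallest p between glucose groups and among strains were named, and called genes elsewhere.

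Alternatives covered brighter probe sets, 1 probe set per gene, quantile normalization, median centring, trend and robust variance, array weights, a covariate, all arrays in 1 fit, the mean over probe sets, the replicate block and leaving out single arrays.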

Additional observations from a re-analysis of the deposited data

How the results depend on the processing

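No member was called between the glucose groups under any of the 9 alternatives run for that comparison. Over all comparisons, 303 values of 18 named members under 12 settings kept their direction. Of these, 277 stayed on the same side of the threshold, 19 lost the call and 7 gained it. For part of these values the direction could not change. A range of strain means has no sign, and settings that only dropped other probe sets or changed the variance model left the differences as they were. The count of 1 member in the F test became 2 with trend and robust variance, 2 with array weights, 4 with all 58 arrays in 1 fit, 0 with the axis score as a covariate and 0 without the higher-scoring BUF and F344 arrays. The count of 5 in BUF became 1 with array weights (Psmd14), 0 with the covariate and 0 without those arrays. Array weights gave 2 calls in ACI and 1 in M520, and all 58 arrays in 1 fit gave 1 in M520. The count of 3 between HS and inbred rats became 9 with brighter probe sets alone (fewer tests), 9 with quantile normalization and 13 with array weights. The cause of these shifts was not tested beyond that.

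Leaving out each inbred array in turn gave 0 to 1 calls in ACI, 0 in BN, F344 and WKY, 0 to 9 in BUF, 0 to 2 in M520, 0 to 6 in the F test and 1 to 9 between HS and inbred rats. Where 1 array of a strain is left, it is assumed to vary like the other strains. With the replicate number as a block the F test called 1 member and BUF 5, and no count of calls changed. The arrays share only a number: over 15 pairs of strains the deviations of same-numbered arrays from their strain means correlated with r from -0.15 to 0.42, and 3 pairs were above 0.1. With 2 arrays a strain, small differences such as those of most members could not be told from the spread.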
